A study of Mus musculus with 2 samples.

Results

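*Sox10*, *S100b*, *Erbb3*, *Ngfr*, *Foxd3*, *Th* and *Tubb3* are used as markers of Schwann cells and of autonomic neurons, and their transcripts were followed in mouse ureters cultured with an inhibitor of WNT secretion. The 7 genes were chosen for these roles by name, among 29924 gene names on the array, and each was represented by 1 probe. Ureters of wildtype NMRI mice were taken at P0 and kept for 18 h on transwell membranes with 5 µM IWP-2, which blocks PORCN, the acyltransferase that readies WNT ligands for secretion, or with the solvent DMSO at 1:1000 (control). The comparison asks which transcripts of the newborn ureter depend on WNT ligands. RNA was hybridised to 2 two-colour arrays, each with 1 control pool and 1 IWP-2 pool of 5 to 6 ureters, from female pups in replicate 1 and from male pups in replicate 2. IWP-2 RNA carried the red dye in replicate 1 and the green dye in replicate 2. Sex, dye orientation and array changed together and cannot be told apart, and both arrays lay on 1 slide. Each pool mixes several ureters, and a whole ureter holds urothelium, smooth muscle, fibroblasts, vessels and nerves.

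Schwann cells are the glia of peripheral nerves and arise from the neural crest. *Sox10* and *Foxd3* encode transcription factors of the crest and of early glia, neuregulins from axons signal to Schwann cells through ERBB3 and its partner ERBB2, and NGFR, the low-affinity neurotrophin receptor, is found on immature and non-myelinating Schwann cells. Postganglionic sympathetic neurons, which innervate smooth muscle and vessels, make noradrenaline from tyrosine by way of tyrosine hydroxylase, the product of *Th*. *Tubb3* encodes a β-tubulin of neurons. In pooled tissue fewer cells of a type and less RNA per cell cannot be told apart. Much of the mRNA of a neuron also stays in its cell body, and many nerve fibres of an explanted organ are cut from ganglia that lie outside it.

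The level of each gene was read by a 60-base probe with 4 spots on each array. The last 30 bases of the 7 probes are shown because every value of these genes rests on them, 5′ to 3′ in the sense of the transcript, with capitals marking the hexamer AATAAA, the usual polyadenylation signal.
Sox10: tccagcgataccttAATAAAgtacgtagct
S100b: tattcaaatagcgacgttttaaataatcca
Erbb3: ttccctaaggctaacgcccagagaatttga
Ngfr: ttcatgttccctgacacttcccctttgcat
Foxd3: gtataaagacgttgggagattttaaatcca
Th: catgctgtattctaccctgattattatctc
Tubb3: acttAATAAAgttactgctgtctgtcagat

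In the mm9 build named by the array files, the probes lie at chr15:78985518-78985577 (*Sox10*, minus strand), chr10:75723783-75723842 (*S100b*, plus strand), chr10:128006424-128006483 (*Erbb3*, minus strand), chr11:95430211-95430270 (*Ngfr*, minus strand), chr4:99325170-99325229 (*Foxd3*, plus strand), chr7:150078703-150078762 (*Th*, minus strand) and chr8:125945850-125945909 (*Tubb3*, plus strand). No annotation of that build was used, so exon and UTR limits are not given. The *Sox10* and *Tubb3* probes held AATAAA, as did 12.6% of all probes. A probe at the end of a transcript reads all isoforms that share that end and none that stop before it.

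All 7 genes were measured in each of the 4 pools, that is, well above background and above the floor of 15 that was set on the signals. The treatment was visible on the arrays. *Axin2*, a feedback target of WNT signaling, went from a signal of 181 to 42.06 in the female pools and from 154.4 to 46.68 in the male pools (limma adjusted p = 0.00876, higher in the control in both arrays). *Porcn* itself had a mean log2 ratio of IWP-2 over control of −0.04 (adjusted p = 0.943). Between 67.8% and 69.4% of probes were well above background in a channel, and 0 spots were saturated. Of 23837 probes tested over both arrays by limma with Benjamini-Hochberg adjustment at 0.05, 126 (0.529%) were called, 95 of them lower (0.399%) and 31 higher (0.13%) with IWP-2. With the filter as first set, well above background alone, 0 probes were called.

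None of the 7 markers was called in either direction. Their mean log2 ratios ranged from −0.292 for *Tubb3* to 0.241 for *S100b*, with a median of −0.063 against −0.003 over all tested probes. The direction was shared by both arrays for 5 of them: *Sox10* and *Tubb3* were lower in both, and *S100b*, *Erbb3* and *Ngfr* were higher in both. Over all genes, 29.6% were lower in both arrays, 25.9% were higher in both and 44.5% went opposite ways. Before adjustment 3 of the 7 (*Sox10*, *S100b* and *Tubb3*) had a limma p under 0.05, as did 13.5% of all tested probes (6.05% lower and 7.41% higher). The variances behind p and intervals were moderated by limma over all tested probes. The 95% interval of each of the 7 mean ratios left out a change of 1.5-fold in either direction, the fold that the study used as its filter. That filter (control signal above 100 and 1.5-fold in both arrays) kept 51 lower and 10 higher genes of 14051 (0.363% and 0.0712%), and none of the 7. *Foxd3* could not pass it, since its male control signal was 82.32. The limit of 100 was applied to the signals as normalized here, and the study's own normalized intensities are on a higher scale, so a gene below 100 here can lie above that limit there.

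**Figure D1:**
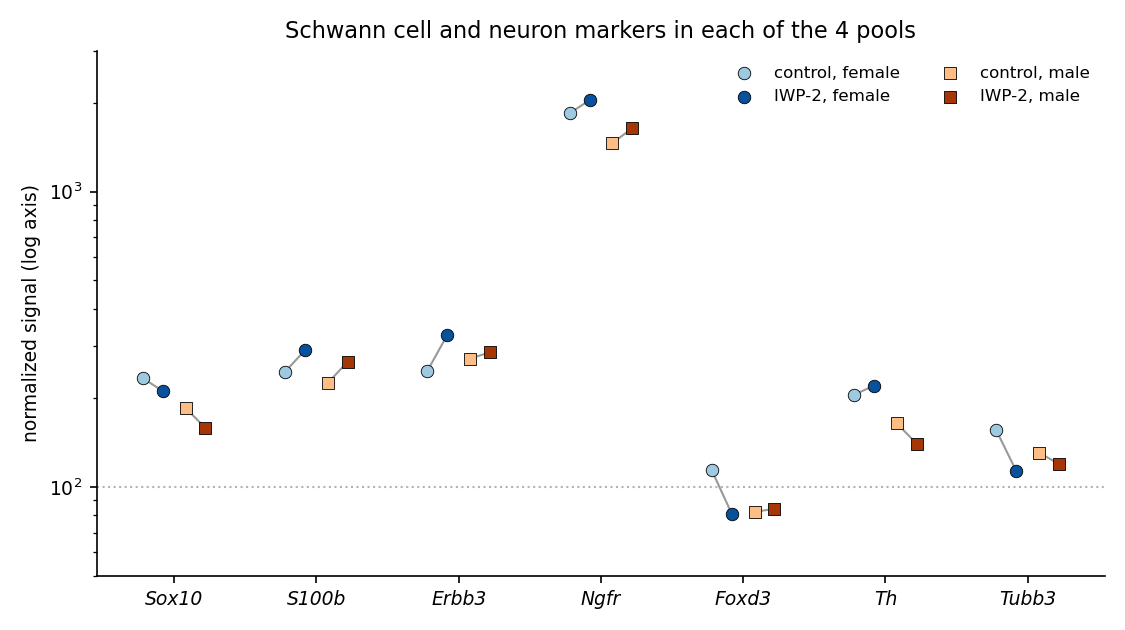
Normalized signal on a log axis of the 7 markers in the control and IWP-2 pools of the female array (circles) and the male array (squares), with a grey line joining the 2 pools of an array and a dotted line at a signal of 100. *S100b*, *Erbb3* and *Ngfr* had the higher signal in the IWP-2 pool of both arrays, *Sox10* and *Tubb3* the lower one, and signals are not comparable between genes.

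*Sox10*, the transcription factor that Schwann cells keep throughout their life, had a signal of 233.4 in the female control pool, 211 in the female IWP-2 pool, 184.9 in the male control pool and 158.3 in the male IWP-2 pool. The IWP-2 pool was the lower in each array, but the groups overlapped, because the female IWP-2 pool exceeded the male control. The log2 ratio was −0.145 for the female and −0.224 for the male array, and all 4 spots of the first and the 3 unflagged spots of the second lay below 0. The mean was −0.185 (standard error 0.0733, 95% interval −0.368 to −0.001, 2 arrays), 1.137-fold lower with IWP-2, and was not called (limma adjusted p = 0.368). Of all tested probes, 7.57% had a lower mean ratio.

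*Foxd3*, which is active in migrating crest cells and in Schwann cell precursors, had signals around 100. They were 113.6 in the female control, 81.05 in the female IWP-2 pool, 82.32 in the male control and 84.14 in the male IWP-2 pool. The female control stood above the other pools, which lay close together. The log2 ratios were accordingly −0.487 and 0.031, and their mean of −0.228 had a standard error of 0.131 (limma adjusted p = 0.587). The male spots themselves ran from −0.052 to 0.099, on both sides of 0.

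*S100b*, which encodes a calcium-binding protein abundant in Schwann cells, had the most even response of the 7. The signal was 245.4 in the female control, 290.1 in the female IWP-2 pool, 224.6 in the male control and 265.5 in the male IWP-2 pool. Both IWP-2 pools lay above both controls, as they did for 14.5% of all genes after scaling between the arrays. Its log2 ratio was 0.241 in each array, and all 8 spots were above 0 (0.168 to 0.304 in the female and 0.164 to 0.283 in the male array). The mean of 1.182-fold (95% interval 1.045 to 1.338) was not called after adjustment over all probes (limma adjusted p = 0.236), and 93.6% of probes had a lower mean ratio.

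*S100b* is also transcribed in adipocytes and cartilage, so marker genes of both were read beside it. Of 6 adipocyte genes, *Cidec* and *Lep* lay at the floor in all pools. *Fabp4* (0.251 and 0.282) and *Pparg* (0.452 and 0.257) had positive ratios in the female and male arrays without being called. *Plin1* was dim, at 23.01 and 32.6 in the female and 15 and 32.19 in the male control and IWP-2 pools. Its ratios of 0.503 and 1.102 were not called, and the second starts from a control at the floor. *Adipoq*, the adipocyte-specific hormone adiponectin, had signals of 300.2, 205.5, 66.27 and 175 in the female control, female IWP-2, male control and male IWP-2 pools, so its ratio was −0.547 for the female pair and 1.401 for the male pair. The summed signal of the list went from 17350 to 21380 and from 18800 to 22830. Most of it came from *Fabp4* (11960 in the female and 12390 in the male control) and *Pparg* (5036 and 6303). The sum thus followed these genes and says little about *Adipoq* or *Plin1*. Of 5 cartilage genes, *Acan*, *Matn1* and *Comp* were at the floor in all pools. *Col9a1* had signals of 2197, 2088, 1430 and 1555 in the same order of pools (log2 ratios −0.073 and 0.121). *Col2a1*, the main collagen of cartilage, was dim, at 35.81, 18.29, 19.5 and 15, with log2 ratios of −0.969 and −0.379 (limma adjusted p = 0.144). The part of fat and cartilage cells in the *S100b* signal was not tested.

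*Erbb3*, the neuregulin receptor on Schwann cells, had signals of 246.8 in the female control, 326.8 in the female IWP-2 pool, 271.9 in the male control and 285.5 in the male IWP-2 pool. Both IWP-2 pools were above both controls (14.5% over all genes), with most of the distance coming from the female array. The log2 ratio was 0.405 between the female pools and 0.07 between the male pools, where 1 of 4 spots lay below 0. The mean was 0.238 (standard error 0.101, 95% interval −0.014 to 0.49, limma adjusted p = 0.402). *Erbb3* is also expressed in many epithelia. The 11 urothelial marker genes had ratios from 0.067 to 0.53 between the female pools and from −0.219 to 0.24 between the male pools, with medians of 0.346 and 0.018, and their summed signal went from 146800 to 183400 and from 177900 to 182200. None of the 11 was called, and the part of the urothelium in the *Erbb3* signal was not tested.

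*Ngfr* gave signals of 1842 in the female control, 2040 in the female IWP-2 pool, 1458 in the male control and 1640 in the male IWP-2 pool. Within each array the IWP-2 pool was higher, while both female pools exceeded the male control and IWP-2 pools, so that the groups overlapped. The log2 ratios of 0.147 and 0.17 were close to each other, with all 8 spots above 0. Their mean of 0.159 (standard error 0.0715, 95% interval −0.02 to 0.338) was not called (limma adjusted p = 0.436).

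The measured ratios of the genes used as glial markers thus did not share 1 direction, and none of these genes was called. In the same pools the log2 ratio of *S100b* exceeded that of *Sox10* by 0.386 in the female and 0.465 in the male array, and that of *Ngfr* exceeded it by 0.293 and 0.394. These differences within an array are descriptions of 2 arrays and carry no test.

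*Th*, the rate-limiting enzyme of catecholamine synthesis, had signals of 205 in the female control, 220.1 in the female IWP-2 pool, 164.1 in the male control and 140 in the male IWP-2 pool. The groups overlapped, and the arrays went opposite ways, with a log2 ratio of 0.103 between the female pools (all 3 unflagged spots above 0) and −0.229 between the male pools (all 4 spots below 0). The mean was −0.063 (standard error 0.1, 95% interval −0.314 to 0.188, limma adjusted p = 0.926). Whether the response of *Th* differed between the sexes was not tested, since each sex had 1 array.

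*Tubb3* had signals of 155.2 in the female control, 113.1 in the female IWP-2 pool, 130.5 in the male control and 119.4 in the male IWP-2 pool. Both IWP-2 pools lay below both controls. Over all genes, 17.1% had both IWP-2 pools below both controls and 14.5% had both above, after scaling between the arrays, against 1 and 2 of the 7 markers. The log2 ratio of *Tubb3* was −0.456 for the female and −0.128 for the male pools, and all 8 spots were below 0. The mean of −0.292 (standard error 0.0998, 95% interval −0.542 to −0.043) was the lowest of the 7, with 3.14% of all tested probes below it, and it was not called (limma adjusted p = 0.292). Of 6 measured other β-tubulin genes, 4 were lower in both arrays (29.6% over all genes) and none was called. Their mean ratios ran from −0.159 (*Tubb4a*) to 0.065 (*Tubb2a*), with a median of −0.111.

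**Figure D2:**
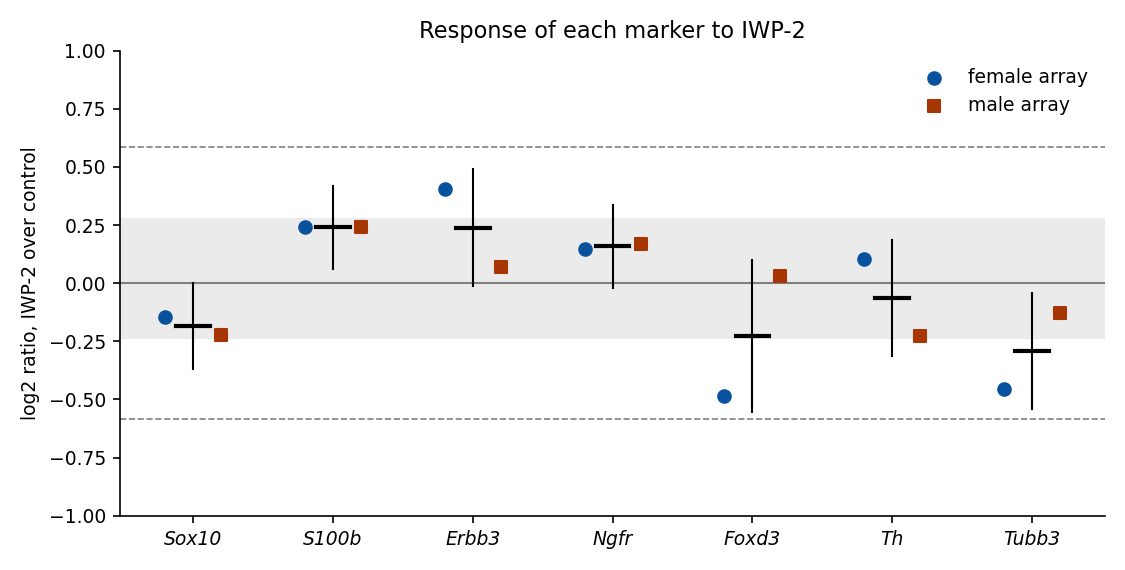
Log2 ratio of IWP-2 over control for the 7 markers in the female array (circles) and the male array (squares), with the mean (thick bar) and its 95% interval from limma (thin line). The grey band spans the 5th to 95th percentile of the mean ratios of all tested probes (−0.234 to 0.276), the dashed lines mark a change of 1.5-fold, and no interval reaches them.

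With 2 arrays, each marker shared its pattern with many other probes. Around *Ngfr* 1600 other tested probes (6.71%) had both ratios within 0.1 of its own, around *Sox10* 1024 (4.3%), around *Th* 829, around *S100b* 610, around *Erbb3* 504, around *Tubb3* 198 and around *Foxd3* 105 (0.44%). Among the genes of the lists described here, the nearest in the 2 ratios, where reported, was *Mal* for *Erbb3*, *Egr2* for *Tubb3*, *Gata3* for *S100b*, *Csf1r* for *Ngfr*, *Epcam* for *Th* and *Bdnf* for *Foxd3*.

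Beyond the 7 markers, other genes of Schwann cells and nerves were read from fixed lists. Of 25 further Schwann cell genes 21 were measured, and 1 was called, against 0.581% of all genes. That gene was *Pou3f1* (also *Oct6* or SCIP), the transcription factor of promyelinating Schwann cells, which keratinocytes and other epithelial cells also express. Its signal fell from 82.26 to 44.37 in the female pools and from 71.57 to 37.74 in the male pools, with log2 ratios of −0.891 and −0.923 (mean −0.907, standard error 0.0717, limma adjusted p = 0.0206). The study, from the same arrays, lists *Pou3f1* among its top transcripts lowered by IWP-2. The probe was dim, below 100 in every pool on the scale used here. Its call held in 7 of 11 settings, with a limma adjusted p between 0.00417 and 0.463. The call was lost with a floor of 1, without a filter on signal and with well above background alone. It was also lost in the fit that drops the pairing within arrays (adjusted p = 0.393). The last bases of the *Pou3f1* probe, which lies at chr4:124337692-124337751 on the plus strand of mm9, are shown for comparison with those of the 7 markers.
Pou3f1: gtttgttaaggtttcagcttaaattttgtt

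The other Schwann cell genes had a median mean ratio of −0.02. *Egr2*, the driver of myelination that acts after *Pou3f1*, had log2 ratios of −0.434 and −0.095 and was not called (adjusted p = 0.349). The myelin-associated genes *Mag* and *Gjc3*, together with *Pou3f2*, lay at the floor in all 4 pools, while *Pmp22* and *Mbp*, which are not confined to Schwann cells, were well measured and not called. Pigment cells are another crest derivative that expresses *Sox10*. Of their 7 list genes *Tyr*, *Dct*, *Tyrp1*, *Mlana* and *Slc45a2* were at the floor in all pools, whereas *Mitf*, which other cell types express as well, had signals of 457.1 to 507.9 and *Pmel* of 47.21 to 57.19. Neither was called, and the part of pigment cells in the *Sox10* signal was not tested. Of the 12 genes of neural crest and enteric progenitors 9 were measured and none was called, with *Sox9* (mean ratio 0.315, adjusted p = 0.298) and *Foxd2* (0.273, adjusted p = 0.216) the farthest from 0.

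Signals to Schwann cells and neurons were read next. *Nrg2*, with the highest mean ratio of the neuregulin and ERBB list, went from 207.7 to 253.6 in the female and from 126.2 to 233.5 in the male pools (log2 ratios 0.288 and 0.888, limma adjusted p = 0.184), and a second probe gave 0.371 and 0.826. *Nrg1* had log2 ratios of 0.611 and 0.175 (adjusted p = 0.239). Neither passed the threshold. *Erbb2*, the partner of *Erbb3*, had ratios of 0.139 and −0.176, and *Erbb4*, *Nrg3* and *Nrg4* were at the floor. Of 16 measured genes of the neurotrophin and GDNF families none was called. *Artn*, which encodes artemin, a guidance and survival factor for sympathetic neurons, had ratios of 0.273 and 0.534 (adjusted p = 0.158), and *Ntf3* had 0.258 and 0.274 (adjusted p = 0.207).

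Among neuronal genes, 17 of 17 noradrenergic genes were measured and none was called (median mean ratio −0.026). *Hand1* and *Hand2*, transcription factors of sympathetic neurons and also of mesenchyme, had the lowest means of that list, −0.267 (adjusted p = 0.206) and −0.255 (adjusted p = 0.225). Of 19 pan-neuronal genes 18 were measured and none was called. Of these 18, 10 were lower and 3 higher in both arrays, against 29.6% and 25.9% over all genes. Their median was −0.101, and *Rbfox3* (0.284, adjusted p = 0.365) and *Prph* (−0.244, adjusted p = 0.246) lay farthest out. Cholinergic and nitrergic genes were dim: *Chrna3*, *Chrnb4* and *Nos1* were at the floor, *Chat* had a mean ratio of −0.563 that came almost wholly from the female array (−1.067 against −0.059, adjusted p = 0.373), and *Slc5a7* had −0.559 and 0.095 at signals of 15.43 to 22.74.

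The sensory list held the other called gene. *Pirt*, a regulator of TRP channels that is largely restricted to sensory neurons of dorsal root and trigeminal ganglia, went from 48.45 to 31.32 and from 30.12 to 19.05 (log2 ratios −0.629 and −0.661, mean −0.645, standard error 0.0717, limma adjusted p = 0.0435). This probe was also below 100 in every pool, and its call held in 7 of 11 settings (adjusted p 0.0295 to 0.828). *Scn10a*, *Scn9a*, *Trpv1* and *Pou4f1*, which define such neurons, were at the floor in all pools. *Isl1*, a transcription factor of sensory and sympathetic neurons and of other tissues, went from 123.4 to 87.86 and from 87.52 to 65.59, and its mean of −0.453 was not called (adjusted p = 0.0918). Of 7 measured sensory genes, 5 were lower in both arrays and 2 were higher in both, against 29.6% and 25.9% over all genes. Their median was −0.282, but besides *Pirt*, *Calca*, *Calcb*, *Tac1* and *P2rx3* were also dim, at signals of 18.84 to 36.28. None of the measured genes of the melanocyte, adipocyte, chondrocyte, urothelium, smooth muscle, fibroblast, endothelium and macrophage lists was called.

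**Figure D3:**
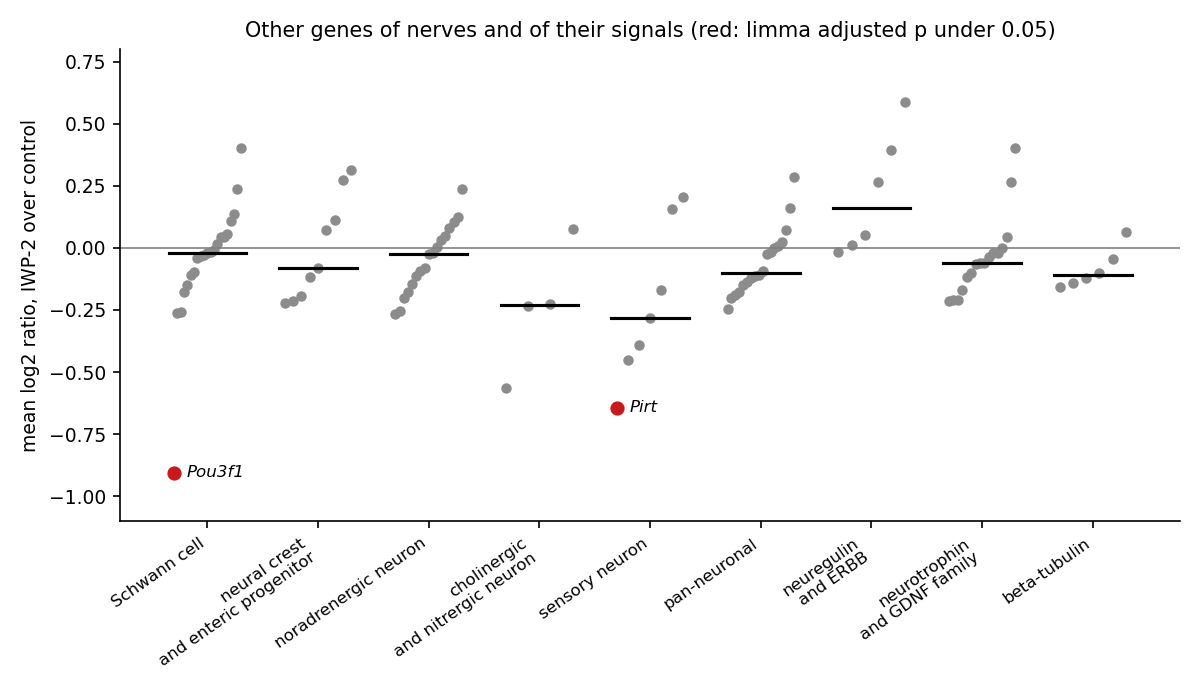
Mean log2 ratio of IWP-2 over control of each measured gene (1 point per gene, brightest probe) in 9 lists of nerve genes, with the list's median as a black line. *Pou3f1* (−0.907) and *Pirt* (−0.645), in red, were the genes called by limma. The sensory list, most of whose genes were dim, had the lowest median (−0.282).

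The 4 pools differed more between the arrays than with IWP-2 for several of these genes. After quantile scaling of the average signal between arrays, *Sox10*, *Ngfr* and *Th* were higher in both female pools than in both male pools, by 1.285-, 1.267- and 1.392-fold on average, and none of the 7 was lower. Over all genes 26.3% were higher and 20.9% lower in both female pools. Of the 17 noradrenergic genes 13 were higher in both female pools and 1, *Gch1*, was lower, with a median difference of 0.517 on the log2 scale (0.483 between the control pools and 0.551 between the IWP-2 pools) against 0.013 over all genes. *Dbh*, which turns dopamine into noradrenaline, had scaled signals of 485 and 502.3 in the female and 328.9 and 309.5 in the male control and IWP-2 pools. *Chgb*, a protein of secretory granules, had 590.1 and 624.1 against 361.7 and 383.3. *Chga* and *Scg2*, of the same granules, were 1.777- and 1.78-fold higher in the female pools.

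In the Schwann cell list 8 of 21 genes were higher and 3 lower in both female pools (median 0.085), with *Cdh19*, a cadherin of Schwann cell precursors, at 1.372-fold, and in the pan-neuronal list 8 of 18 were higher and 1 lower (median 0.101). Lists of other tissues differed between the arrays as well. Of 7 smooth muscle genes 4 were higher and 0 lower in both female pools (median 0.241, with 0.374 between the control and 0.124 between the IWP-2 pools), and of 5 endothelial genes 3 were higher and 0 lower (median 0.167). Of 11 urothelial genes 0 were higher and 1 lower, with a median of −0.256 between the control and 0.065 between the IWP-2 pools. The part of such differences in tissue makeup in the nerve genes was not tested. Chromaffin cells of the adrenal medulla also express *Th*, *Dbh* and the granins. *Pnmt*, the adrenaline-forming enzyme of these cells, was at the floor in all pools, as were *Star*, *Cyp11b1* and *Hsd3b1* of steroid-forming cells, and *Cyp11a1* was at the floor in the female pools and at 20.28 and 18.34 in the male pools. The part of chromaffin cells in the *Th*, *Dbh* and granin signals was not tested. The differences between the arrays are descriptions of 1 array of each sex. Sex, array and the litters or dissections behind the pools cannot be told apart.

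**Figure D4:**
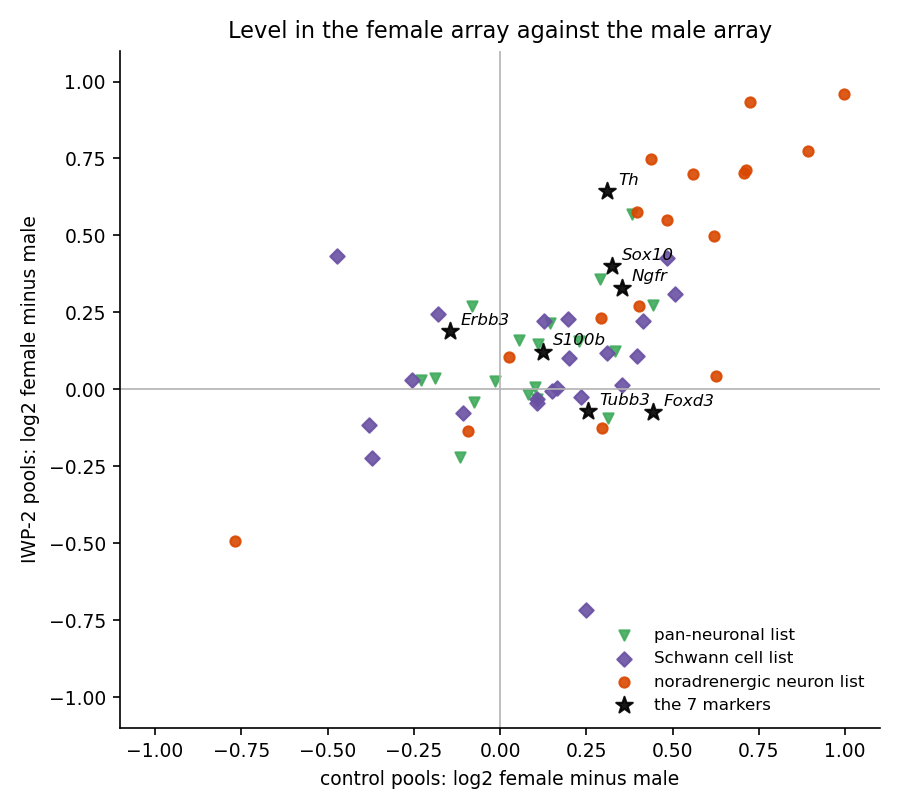
Log2 difference between the female and the male array in the control pools (horizontal) and in the IWP-2 pools (vertical) for the 7 markers (stars) and for the measured genes of the noradrenergic, Schwann cell and pan-neuronal lists. Most noradrenergic genes lie in the upper right, around the list medians of 0.483 and 0.551, with *Sox10*, *Ngfr* and *Th* on the same side of 0 on both axes.

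The starts of the genes were searched for the sequences bound by the transcription factors of WNT signaling and by SOX proteins. RefSeq promoters of GRCm38.p6, from 250 bases before to 50 after the start, matched 5 of the 7 genes (all but *Sox10* and *Erbb3*). The TCF/LEF core CTTTGAA or CTTTGAT, on either strand, was in none of these 5 windows and in 8.65% of all 32851. The SOX core ACAAAG or ACAATG, whose first form overlaps the reverse complement of CTTTG, was in that of *Tubb3* and in 28.6% of all windows.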

How the data were processed

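The authors deposited Agilent Feature Extraction files, with background-subtracted and dye-normalized intensities (processed signals) for each channel; the file header names version 12.2.0.7 and the submitters' processing notes 10.7.3.1. The deposited log10 ratio of red over green was used to check direction. The deposited series table holds a score, a signed fold change of IWP-2 over control (column medians 1 and 1; same sign as the arrays for 100% of ratios beyond 0.3; its normalization is not stated).

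Control spots and flagged outlier spots (5235 and 5075) were left out. Signals were normalized by loess within each array (limma 3.58.1, R 4.3.3), floored at 15, expressed as log2 and averaged over spots. Ratios were turned by the dye swap and tested against 0 with lmFit and eBayes (1 residual degree of freedom), with Benjamini-Hochberg adjustment over 23837 probes. Control and treated pools of a replicate share an array and a sex, and are thus paired. The number of arrays limits the precision, since 2 arrays allow no exact sign-flip p below 0.5. Every p, standard error and interval rests on a variance that eBayes moderates over all tested probes (5.52 total degrees of freedom). It is thus not the spread of that probe alone, and the only spread that enters is between these 2 arrays. Probes were tested where 3 of 4 channels were well above background and above the floor. The second condition was added after the data were seen, because probes at the floor have a ratio of exactly 0 and no variance. With the first condition alone, as first set, 0 probes were called.

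The members and the 17 other lists (170 genes) were chosen with earlier results of these data known. Named by rule were the 7 markers, called genes of the lists, defining genes at the floor, otherwise the 2 genes of a nerve list with the largest mean ratio, *Axin2* and *Porcn*. *Isl1*, *Pmp22*, *Mbp*, *Egr2* and *Erbb2*, the adipocyte, cartilage, pigment cell and adrenal genes and the genes named between the arrays were chosen after their values were seen. For genes with several probes the brightest was used. The steps were tested on simulated data. Results for some list genes are not reported here.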

Additional observations from a re-analysis of the deposited data

Results flagged for a closer look

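Several genes moved one way in the female array and the other way in the male array, and the difference was not tested, since each sex and dye orientation had 1 array. Among the markers, the log2 ratio of *Th* was higher in the female array by 0.332 (0.103 against −0.229), and that of *Foxd3* differed by −0.518 (−0.487 against 0.031). Among the other genes named, the female minus male differences were −1.948 for *Adipoq*, −0.654 for *Slc5a7*, −0.531 for *Bdnf* and 0.286 for *Epcam*. Over all genes, 44.5% had opposite signs in the arrays.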

How the results depend on the processing

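The 7 markers were not called under any setting in which they were tested, with limma adjusted p of at least 0.175. *Foxd3* was not tested at a mean signal above 100. The mean ratios of the markers kept their sign in every fit that used both arrays. Leaving out 1 array gave *Foxd3* from −0.487 to 0.031 and *Th* from −0.229 to 0.103. In the deposited signed fold changes *S100b* was 0.2 and *Ngfr* 0.138. The fit with no replicate block, which drops the pairing of pools within an array, called 1 probe lower and 0 higher (1748 at an unadjusted p under 0.05) and 0 list genes lower. Against 95 probes lower, 31 higher and 2 list genes lower, normexp gave 232, 168 and 4, and a floor of 1 gave 14, 0 and 0. No filter on signal gave 0, 0 and 0. So did the condition of being well above background alone, which was the filter first set, before the floor condition was added. A mean signal above 100 gave 67 higher and 0 list genes, as both called genes are dimmer than that. The share of lower calls was 75.4%, and it was 58% with normexp and 64.4% at a mean signal above 100. *Pou3f1* and *Pirt* kept ratios of −0.907 and −0.645 but lost the call with a floor of 1, without a filter, without the block and with well above background alone. By the 1.5-fold filter 51 genes were lower and 10 higher; the counts were 89 and 24 with controls well above background, 19 and 0 at 2-fold, and 78 to 160 and 25 to 111 with 1 array left out. The counts of 3 markers and 13 noradrenergic genes higher in both female pools held without scaling and with median centring, both chosen after seeing the data, although median centring turned the share of all genes to 15.4% higher and 33.3% lower.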
